A study of Danio rerio with 3 samples.

Results

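The genes described here encode the apelin and Cxcl12 chemokine signals that guide mesendodermal and germ cells in the zebrafish (Danio rerio) embryo, together with their receptors. They are 9 genes of the 25386 in the deposited table, taken from the table by their symbols, from a set put together with earlier results of these data known: the apelin ligand genes apela and apln, the apelin receptor genes aplnra and aplnrb, the chemokine ligand genes cxcl12a and cxcl12b, the chemokine receptor genes cxcr4a and cxcr4b, and the scavenger receptor gene ackr3b. All 9 symbols were found once each. Poly(A) RNA came from 3 libraries of whole embryos of wild-type genotype, taken out of their chorions. In the library WGA 4.3 hpf, embryos had received 1 nl holding 0.65 ng of wheat germ agglutinin (WGA) in the yolk at the 1-cell stage and were collected at 4.3 hours post fertilisation (hpf). In the library WGA 5 hpf, embryos injected in the same way were collected at 5 hpf, when they had a shape like dome stage. In the library control 4.3 hpf, embryos had no treatment and were at dome stage. WGA is a lectin that binds sugar-modified nucleoporins and hinders transport through nuclear pores, and the study asked how this affects zygotic genome activation, when the embryo begins to transcribe its own genes. The labels name no mock injection for the control, and the number of embryos per library is not given in them.

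Apela, also called Toddler or Elabela, is a small secreted peptide that acts through both apelin receptors. In zebrafish it promotes the movement of mesodermal and endodermal cells during gastrulation, which follows the dome stage. Cxcl12b from mesodermal cells and its receptor Cxcr4a keep endodermal cells together with the mesoderm in the same period. Cxcl12a attracts primordial germ cells through Cxcr4b, while Ackr3b on surrounding cells takes up Cxcl12a and shapes its distribution. All the receptors here are 7-transmembrane receptors, of which the apelin and Cxcr4 receptors act mainly through G proteins.

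With 1 library per group, no difference below has a replicate check and no test was possible. Values are FPKM (fragment counts set relative to transcript length and to all mapped fragments), so levels of different genes can be set side by side per length. A ratio is the log2 of (FPKM + 1) in one library over that in another. It understates the change of low genes. A gene was called higher or lower where this scale showed at least a 2-fold difference and at least 1 of the libraries compared had an FPKM of 1 or above. The deposited values hold no read numbers. Low genes gave an FPKM ratio per read of 0.965 for each WGA library over control, but only a narrow range of ratios near equal depth was searched and the peaks were weak, so neither relative nor absolute depth is established. Spread can be gauged from the WGA libraries alone, although they also differ in time: between them 95% of 13478 genes differed by less than 1.55-fold.

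At 4.3 hpf, 7 of the 9 guidance genes were lower by 2-fold or more in WGA embryos than in controls of the same age, none was higher, aplnrb was within 2-fold, and apln was too low to measure. The peptide gene apela and its receptor gene aplnra lay furthest below control on the log2(FPKM + 1) scale. The chemokine receptor gene cxcr4a came next on the log2(FPKM + 1) scale, while on the plain FPKM values cxcl12a (6.50-fold lower) and cxcr4a (6.40-fold lower) stood close together. With a pseudocount of 5 the order turned, at log2 ratios of -2.25 for cxcr4a, -2.14 for aplnra and -1.98 for apela. No order among these genes is therefore established. As background, 8.97% of the 14263 genes compared were called lower and 7.21% were called higher. The 8 measured members reached an FPKM of 1 in every library, so none entered the comparison through the control alone. Their median log2 ratio was -2.20 (SD over members 0.81), beside 0.03 for all genes measured. Whole embryos were sequenced, so fewer cells of a type and less RNA per cell cannot be told apart. The labels name dome stage for the control and no stage for the WGA embryos of 4.3 hpf, so these libraries share age but perhaps not stage. With no mock injection named, WGA and the injection itself cannot be told apart either.

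**Figure D1:**
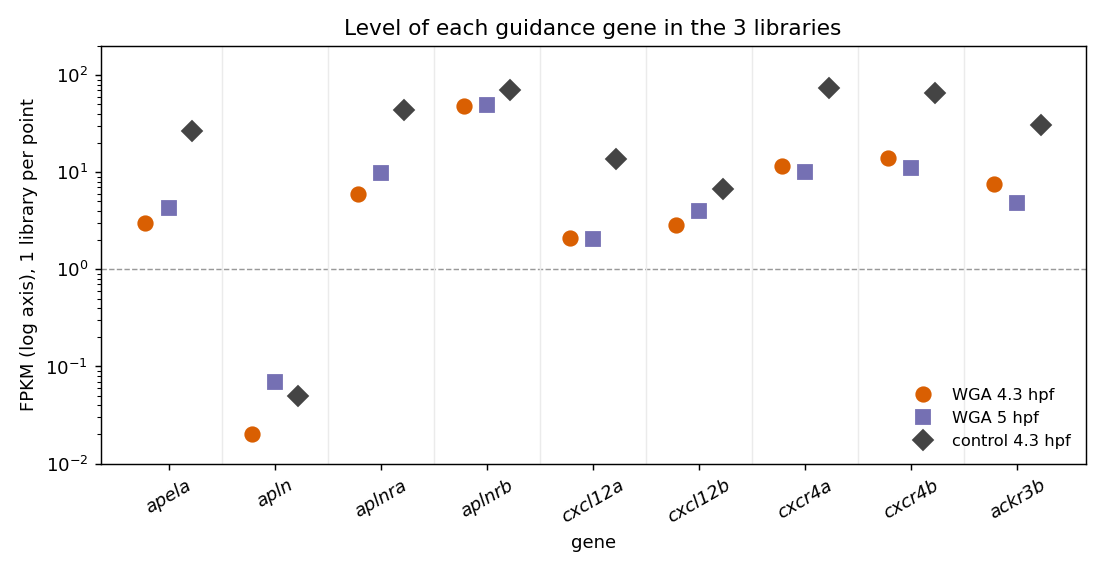
FPKM on a log axis of the 9 guidance genes in the libraries WGA 4.3 hpf, WGA 5 hpf and control 4.3 hpf, 1 point per library, with a dashed line at FPKM 1. The control lies above both WGA libraries for every gene but apln, which is below 0.1 FPKM throughout, and aplnrb stands at 48.0 and 49.4 FPKM in the WGA libraries against 71.1 FPKM in control.

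Among the apelin genes, the ligand gene apela and the receptor gene aplnra lay similarly far below control, and the receptor gene aplnrb lay closer to it. The ligand gene apela (NCBI Gene 100536023) stood at 2.98 FPKM in WGA 4.3 hpf, 4.33 FPKM in WGA 5 hpf and 26.5 FPKM in control. Both WGA libraries are far below the control, and WGA embryos of 4.3 hpf held 11.2% of the control FPKM. On the log2(FPKM + 1) scale apela was 6.91-fold lower at 4.3 hpf and 5.16-fold lower at 5 hpf. On the plain FPKM values, which carry no pseudocount, the difference at 4.3 hpf was 8.90-fold. Of the 14263 genes measured, 0.24% had a log2 ratio below that of apela. The other ligand gene, apln (798375), which encodes apelin itself and is known for later roles in blood vessels, was at 0.02 FPKM in WGA 4.3 hpf, 0.07 FPKM in WGA 5 hpf and 0.05 FPKM in control. These values lie too close to 0 for a fold to be given.

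The receptor gene aplnra (561935) stood at 5.94 FPKM in WGA 4.3 hpf, 9.73 FPKM in WGA 5 hpf and 43.4 FPKM in control. It was 6.39-fold lower at 4.3 hpf and 4.14-fold lower at 5 hpf. Its partner aplnrb (565492), known from the zebrafish mutant grinch for heart progenitor formation, stood at 48.0 FPKM in WGA 4.3 hpf, 49.4 FPKM in WGA 5 hpf and 71.1 FPKM in control. It was the one measured member within 2-fold of control at both times, at log2 ratios of -0.56 and -0.52. At 4.3 hpf, 16.0% of all genes measured had a lower ratio than aplnrb, while 0.41% had a lower ratio than aplnra. The direction of aplnrb at 4.3 hpf depends on scaling: with the libraries scaled to their cytosolic ribosomal protein genes its log2 ratio was 0.17.

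The unequal difference shifted the balance between the receptor genes. The FPKM of aplnrb was 8.08 times that of aplnra in WGA 4.3 hpf, 5.08 times in WGA 5 hpf and 1.64 times in control. Of the summed FPKM of both receptor genes, aplnrb made up 89.0% in WGA 4.3 hpf, 83.5% in WGA 5 hpf and 62.1% in control. The sum itself was 53.9 FPKM in WGA 4.3 hpf, 59.1 FPKM in WGA 5 hpf and 114.5 FPKM in control. Ratios and shares within a library do not depend on scaling between libraries, but sums do. The summed receptor FPKM was 2.12-fold lower at 4.3 hpf, and 1.27-fold lower with ribosomal protein scaling. That of the ligand genes was 8.86-fold lower, and 5.32-fold lower with that scaling. A further gene with an apelin receptor symbol, aplnr2 (793710), named here after its values were seen, was at 2.08, 2.12 and 2.28 FPKM in WGA 4.3 hpf, WGA 5 hpf and control.

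**Figure D2:**
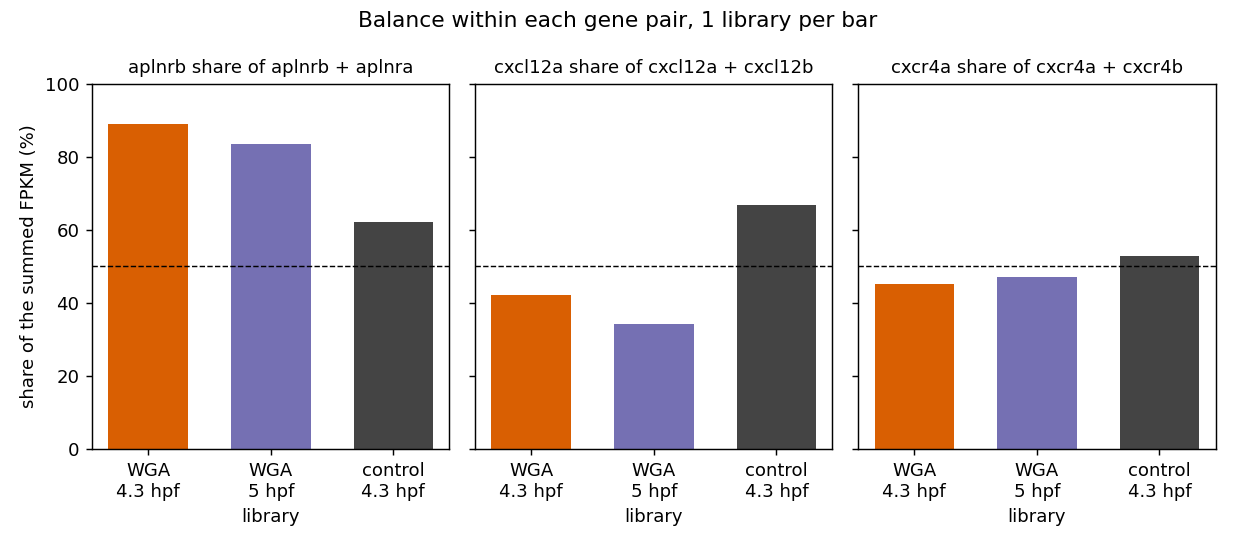
Share in percent of aplnrb in the summed FPKM of aplnrb and aplnra, of cxcl12a in that of cxcl12a and cxcl12b, and of cxcr4a in that of cxcr4a and cxcr4b, 1 bar per library, with a dashed line at 50%. The aplnrb share is 89.0% and 83.5% in the WGA libraries against 62.1% in control, the cxcl12a share is 42.1% and 34.2% against 66.8%, and the cxcr4a share stays between 45.1% and 52.9%.

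The chemokine ligand genes were the lowest expressed of the measured members in control. The gene cxcl12a (352944) stood at 2.09 FPKM in WGA 4.3 hpf, 2.05 FPKM in WGA 5 hpf and 13.6 FPKM in control, so the WGA libraries are level with each other and well below the control. It was 4.72-fold lower at 4.3 hpf and 4.78-fold lower at 5 hpf. The gene cxcl12b (799354) stood at 2.87 FPKM in WGA 4.3 hpf, 3.95 FPKM in WGA 5 hpf and 6.76 FPKM in control. At 4.3 hpf it lay just past the counting limit, 2.01-fold lower, and at 5 hpf it was within it, at a log2 ratio of -0.65. The call at 4.3 hpf did not hold with a pseudocount of 5 (log2 ratio -0.58) or with ribosomal protein scaling (-0.43). The ligand genes also differed in balance: cxcl12a stood at 0.73 times the FPKM of cxcl12b in WGA 4.3 hpf, 0.52 times in WGA 5 hpf and 2.01 times in control. In WGA 4.3 hpf the gap between them was 1.25-fold on the (FPKM + 1) scale, and no order is read there. In WGA 5 hpf it was 1.62-fold. The 1.55-fold given above compares the same gene between libraries, so passing it does not establish an order of genes within a library.

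The chemokine receptor genes were among the highest members in control and lay far below it in both WGA libraries. The gene cxcr4a (140747) stood at 11.5 FPKM in WGA 4.3 hpf, 9.95 FPKM in WGA 5 hpf and 73.8 FPKM in control. It was 5.97-fold lower at 4.3 hpf and 6.83-fold lower at 5 hpf, the largest difference of any member at that time. The gene cxcr4b (114447) stood at 14.0 FPKM in WGA 4.3 hpf, 11.2 FPKM in WGA 5 hpf and 65.8 FPKM in control, 4.45-fold and 5.49-fold lower. The receptor pair kept a near-even balance, with cxcr4a at 45.1% of the summed FPKM in WGA 4.3 hpf, 47.1% in WGA 5 hpf and 52.9% in control. The scavenger receptor gene ackr3b (561050) stood at 7.55 FPKM in WGA 4.3 hpf, 4.83 FPKM in WGA 5 hpf and 30.8 FPKM in control. It was 3.72-fold lower at 4.3 hpf and 5.45-fold lower at 5 hpf. Its paralogue ackr3a (100000764) was listed at 0 in both WGA libraries and at 0.04 FPKM in control. In zebrafish the microRNA miR-430 is known to repress cxcl12a and ackr3b; microRNA levels were not analysed here.

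In WGA 5 hpf against control 4.3 hpf, embryos of like shape but unequal age, 6 of the 9 genes were called lower and none higher. As background, 7.92% of the 14158 genes compared were called lower and 5.3% were called higher. The median log2 ratio of the 8 measured members was -2.31 (SD 0.86), beside -0.02 for all genes measured. This comparison uses the same control library as the one at 4.3 hpf, so the values of both rest on that 1 library. With scaling to the ribosomal protein genes, 6 members were called lower at 4.3 hpf, against 7 without it, and 6 at 5 hpf, as without it. The median log2 ratio of the measured members was then -1.58 at 4.3 hpf and -2.02 at 5 hpf. This scaling moved the median log2 ratio of all genes to 0.69 at 4.3 hpf and 0.32 at 5 hpf, and the split over all genes to 814 lower and 4209 higher at 4.3 hpf, against 1280 and 1028 without scaling. At 5 hpf that split was 822 lower and 1612 higher, against 1122 and 751.

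**Figure D3:**
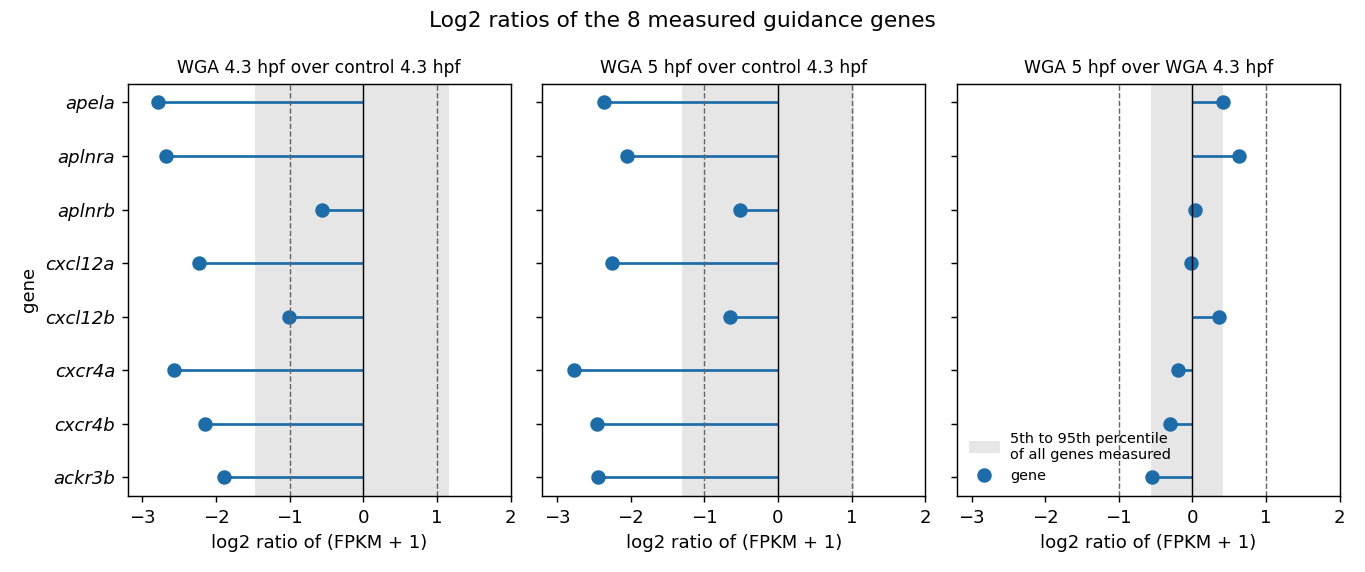
Log2 ratio of (FPKM + 1) of the 8 measured guidance genes in WGA 4.3 hpf over control, WGA 5 hpf over control and WGA 5 hpf over WGA 4.3 hpf. Dashed lines mark 2-fold and the grey band spans the 5th to 95th percentile of all genes measured in that pair. In both comparisons with control every gene but aplnrb and cxcl12b lies left of the band, and between the WGA libraries no gene reaches 2-fold.

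From 4.3 to 5 hpf under WGA, the ratios of the guidance genes went in different directions and none reached 2-fold. Their SD over members was 0.40, beside 0.31 over all genes measured. In WGA 5 hpf over WGA 4.3 hpf, 0 of the 8 measured members were higher or lower by 2-fold or more, where 0.772% of 13478 genes were higher and 0.356% lower. The ratios were positive for aplnra (log2 0.63), apela (0.42) and cxcl12b (0.36), and negative for ackr3b (-0.55), cxcr4b (-0.30) and cxcr4a (-0.19). The genes aplnrb and cxcl12a stood at 0.04 and -0.02. Of all genes measured in this pair, 5.18% differed in either direction by as much as aplnra and 7.29% by as much as ackr3b, so these differences are near the edge of what most genes showed. The log2 factors of TPM, median-of-ratios and ribosomal protein scaling in this pair were -0.04, 0.06 and -0.36. The sign of aplnrb turned with ribosomal protein scaling and that of cxcl12a with median-of-ratios scaling. Signs of aplnra, apela, cxcl12b, ackr3b, cxcr4a and cxcr4b stayed with all of these scalings. For these genes the TPM and median-of-ratios factors were too small to turn a sign, and the ribosomal protein factor could not turn a negative one. The kept signs are therefore no independent check.

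In the order of levels, control had cxcr4a highest, then aplnrb, cxcr4b, aplnra, ackr3b, apela, cxcl12a, cxcl12b and apln. Each of the neighbours from cxcr4a down to apela differed by 1.51-fold or less, within the 1.55-fold that holds 95% of genes between the WGA libraries. That value compares the same gene between libraries, so it is only a rough guide to order within a library. In both WGA libraries aplnrb was highest, 3.26-fold above the next gene, cxcr4b, at 4.3 hpf and 4.14-fold above it at 5 hpf, on the (FPKM + 1) scale. The neighbours cxcr4b and cxcr4a differed by less than 1.55-fold in each WGA library, and so did apela and cxcl12b. Summed over all 9 genes, the level was 95 FPKM in WGA 4.3 hpf, 95.5 FPKM in WGA 5 hpf and 331.8 FPKM in control.

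Genes around these signals were read from lists of textbook members. Of 35 other chemokine and chemokine receptor genes found in the table, 2 reached an FPKM of 1 in any library. The receptor gene ccr6a stood at 11.07 FPKM in WGA 4.3 hpf, 6.81 FPKM in WGA 5 hpf and 9.47 FPKM in control. The gene ccr10, named after its values were seen, stood at 0.18, 0.31 and 2.2 FPKM in the same order. In control the lowest of cxcl12a, cxcl12b, cxcr4a, cxcr4b and ackr3b was cxcl12b, at 6.76 FPKM.

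Genes that carry receptor signals inward lay on both sides of control. Of 26 measured G protein, arrestin and regulator genes, 3 were called lower and 1 higher at each WGA time. Their median log2 ratio was 0.17 at 4.3 hpf and 0.12 at 5 hpf. Of all genes measured, 8.97% and 7.92% were called lower and 7.21% and 5.3% higher. The lower genes were rgs3a, rgs4 and rgs12b, which encode regulators that speed up the shut-off of G proteins. The gene rgs3a stood at 1.97 FPKM in WGA 4.3 hpf, 3.73 FPKM in WGA 5 hpf and 14.5 FPKM in control. The higher gene was prex1, a Rac activator that acts in the migration of zebrafish endodermal cells, at 14.9 FPKM in WGA 4.3 hpf, 13.5 FPKM in WGA 5 hpf and 5.61 FPKM in control. With ribosomal protein scaling, 2 of the 26 were lower and 8 higher at 4.3 hpf, and 1 was lower and 4 were higher at 5 hpf. Over all genes that scaling gave 814 lower and 4209 higher of 14263 at 4.3 hpf. At 5 hpf it gave 822 lower and 1612 higher of 14158, so the counts of higher genes in this list are near background.

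Of 35 measured genes of gastrula cell movement, such as cadherins, integrins, and planar polarity genes, 6 were lower and 1 higher at 4.3 hpf, and 6 were lower and 0 higher at 5 hpf. The shares over all genes measured were 8.97% lower and 7.21% higher at 4.3 hpf, and 7.92% and 5.3% at 5 hpf. The higher gene, the growth factor receptor gene pdgfra (2.33 FPKM in WGA 4.3 hpf against 0.49 FPKM in control), passed the filter through the WGA library alone. The median log2 ratios were -0.13 and -0.17, both positive with ribosomal protein scaling (0.55 and 0.19). The medians over all genes with that scaling were 0.69 and 0.32. The small GTPase gene rhoab was at 3.22 FPKM in WGA 4.3 hpf, 8.85 FPKM in WGA 5 hpf and 32.9 FPKM in control. The hyaluronan synthase gene has2 was at 4.21, 4 and 30.9 FPKM in the same order, and the Wnt receptor gene fzd7a at 10.6, 9.38 and 51.5 FPKM.

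Most markers of mesendoderm and endoderm stood below control at 4.3 hpf and nearer to it at 5 hpf. Of 24 measured mesendoderm and endoderm markers 18 were lower and 1 higher at 4.3 hpf (median log2 ratio -1.92). At 5 hpf 11 of 23 were lower and 1 higher (median -0.99). The shares over all genes measured were 8.97% lower and 7.21% higher at 4.3 hpf, and 7.92% and 5.3% at 5 hpf. At 4.3 hpf, 5 of the 24 passed the filter through the control alone, 3 of them called lower (sox32, gata5 and osr1), so the counts only describe the libraries. In WGA 5 hpf over WGA 4.3 hpf, 7 of 24 were called higher and 0 lower (median 0.67), where 0.772% of 13478 genes were higher and 0.356% lower. Of the 24, 5 passed the filter through WGA 5 hpf alone, 1 of them called higher (gata5). With ribosomal protein scaling 16 markers were lower and 2 higher at 4.3 hpf (median -1.40). At 5 hpf 9 were then lower and 1 higher (median -0.69), and between the WGA libraries 5 were higher and 0 lower (median 0.41). Over all genes that scaling gave 814 lower and 4209 higher of 14263 at 4.3 hpf, and 822 and 1612 of 14158 at 5 hpf. Between the WGA libraries it gave 381 lower and 76 higher of 13478. The T-box gene tbx16 stood at 23.4 FPKM in WGA 4.3 hpf, 39.7 FPKM in WGA 5 hpf and 161.4 FPKM in control. The endodermal regulator gene gata6 stood at 1.19, 8.23 and 20.1 FPKM and the forkhead gene foxa3 at 3.79, 11.2 and 30.8 FPKM in the same order. The marker that was higher without scaling was eomesa, a T-box gene with maternal transcripts. Some other markers stood apart as well: wnt8a had log2 ratios of -0.57 at 4.3 hpf and -0.85 at 5 hpf, and lhx1a 0.50 and 0.37. The gene tdgf1 had -1.54 and -1.48, and lft2 had -1.87 and -1.79. Between the WGA libraries tdgf1 and lft2 stood at 0.06 and 0.08. All of these were named after their values were seen. Summed over the 29 matched markers, the level was 284.8 FPKM in WGA 4.3 hpf, 364.1 FPKM in WGA 5 hpf and 680.4 FPKM in control. Of these sums eomesa made up 142.45, 148.05 and 58.65 FPKM. The endoderm marker sox17 was below an FPKM of 1 in every library, and foxa1 was listed at 0 in WGA 5 hpf. The guidance genes had a median of 0.01 between the WGA libraries. With ribosomal protein scaling it was -0.30, beside -0.38 for all genes measured. Neither the difference between the lists nor the part of these markers in the levels of the guidance genes was tested.

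**Figure D4:**
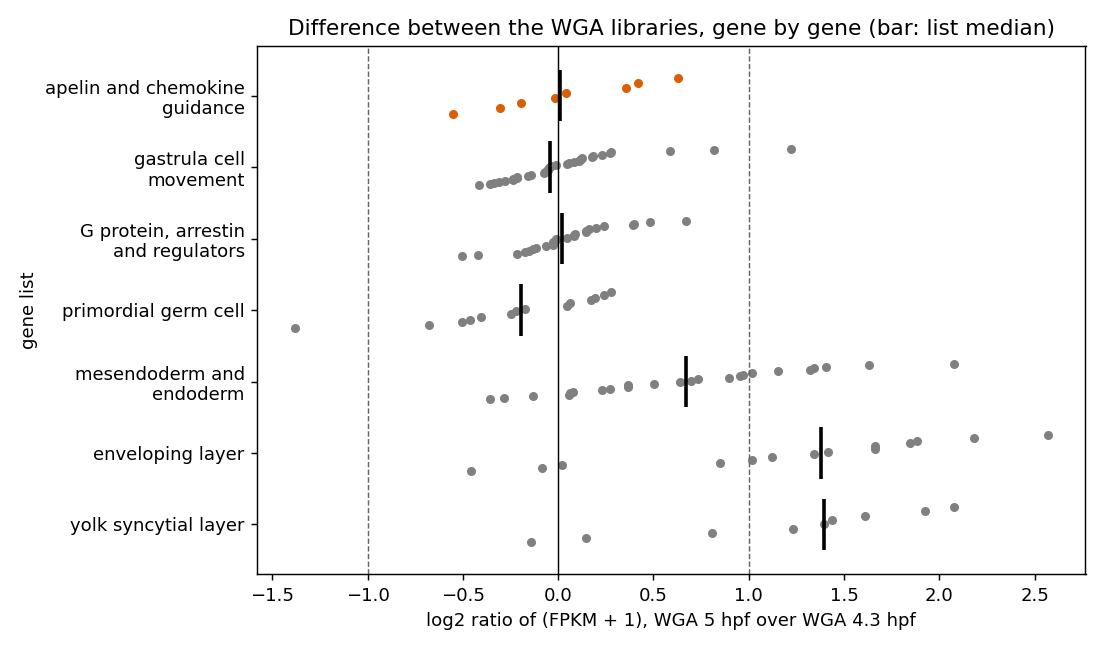
Log2 ratio of (FPKM + 1) in WGA 5 hpf over WGA 4.3 hpf of each measured gene of the guidance genes and 6 other lists, with a black bar at each list's median and dashed lines at 2-fold. The guidance genes lie between -0.55 and 0.63 around a median of 0.01, while the medians are 0.67 for mesendoderm and endoderm, 1.38 for enveloping layer and 1.40 for yolk syncytial layer markers. Of these 3 marker lists 5, 4 and 4 genes passed the filter through WGA 5 hpf alone, against 0 guidance genes. How this moved each median was not computed. The medians therefore only describe the libraries.

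Most markers of the outer and yolk layers, which whole embryos also contain, stood low at 4.3 hpf, and their medians lay nearer to control at 5 hpf. Over all genes measured, 8.97% were lower and 7.21% higher at 4.3 hpf, and 7.92% and 5.3% at 5 hpf. With ribosomal protein scaling 822 of 14158 genes were lower and 1612 higher at 5 hpf (median 0.32). Of 14 measured enveloping layer markers 13 were lower and 0 higher at 4.3 hpf (median -2.35). At 5 hpf 7 of 15 were lower and 0 higher (median -0.90), or 4 of 15 lower with ribosomal protein scaling (median -0.53). Keratin genes led that list, with krt5 at 1.54 FPKM in WGA 4.3 hpf, 14.1 FPKM in WGA 5 hpf and 24.9 FPKM in control, and krt92 and krt4 beside it. Other members did not follow them: the epithelial regulator genes grhl3 and klf17 had log2 ratios of -2.18 and -1.71 at 4.3 hpf and of -2.26 and -2.17 at 5 hpf, and ppl, which encodes periplakin, had 0.07 and 0.10. Summed over its 17 markers, the level was 155.3 FPKM in WGA 4.3 hpf, 345.4 FPKM in WGA 5 hpf and 889.4 FPKM in control, and agr1 and cyt1l were listed at 0 in WGA 4.3 hpf. Of 10 measured yolk syncytial layer markers 9 were lower and 0 higher at 4.3 hpf (median -2.37), and 5 were lower and 0 higher at 5 hpf (median -0.95), with gata6, hnf4a and apoeb leading, while the fibronectin gene fn1a had positive log2 ratios of 0.95 and 0.81. These exceptions were named after their values were seen. Their list summed to 99.6 FPKM in WGA 4.3 hpf, 202.3 FPKM in WGA 5 hpf and 647.9 FPKM in control over 13 markers, of which apoa1b was listed at 0 in every library and apoa4b.1 and hhex in WGA 4.3 hpf. At 4.3 hpf, 4 enveloping layer and 5 yolk syncytial layer markers passed the filter through the control alone, so these counts only describe the libraries. What part these cells had in the levels of the guidance genes was not tested.

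Of the markers of the primordial germ cells, which Cxcr4b guides, 0 were called lower than control, a count near the share over all genes. All 14 matched markers reached an FPKM of 1, and 3 were called higher at 4.3 hpf and 2 at 5 hpf, with median log2 ratios of 0.42 and 0.09. Of all genes measured, 8.97% were called lower and 7.21% higher at 4.3 hpf, and 7.92% and 5.3% at 5 hpf. With ribosomal protein scaling 9 were called higher at 4.3 hpf and 3 at 5 hpf (medians 1.14 and 0.46). Over all genes that scaling gave 4209 of 14263 higher at 4.3 hpf and 1612 of 14158 at 5 hpf (medians 0.69 and 0.32). The 14 markers summed to 1648 FPKM in WGA 4.3 hpf, 1541 FPKM in WGA 5 hpf and 1070.1 FPKM in control. High genes weigh most in these sums. The gene h1m, named after its values were seen, stood at 769.7, 682.5 and 558.3 FPKM in the same order, and buc at 349.7, 364.8 and 70.7 FPKM. The 3 called higher without scaling were tdrd6, buc and tdrd7a, genes of the germ plasm and its granules. The helicase gene ddx4 (vasa) stood at 124.3 FPKM in WGA 4.3 hpf, 140.3 FPKM in WGA 5 hpf and 141.9 FPKM in control, and nanos3, a germ cell maintenance gene, stood at 23.2, 16.5 and 18.02 FPKM in the same order. Both were named after their values were seen. Between the WGA libraries 1 marker, the carbonic anhydrase gene ca15b, was lower by 2-fold or more at 5 hpf, at 18.7 FPKM in WGA 5 hpf against 50.4 FPKM in WGA 4.3 hpf. Endothelial and blood markers were nearly silent, with 1 of 14, lmo2, reaching an FPKM of 1 (0.30 FPKM in WGA 4.3 hpf, 0.56 FPKM in WGA 5 hpf and 1.5 FPKM in control).

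Genes of most similar pattern were found by the distance between the log2 ratios to control of the WGA libraries, over 3 libraries and 8294 genes at FPKM of at least 5 in any of them. With so few libraries many genes lie close, so the neighbours are a description. Nearest to apela was the zinc-finger gene znf1040 (distance 0.09 log2), followed by cyp2aa4. Nearest to aplnra were ca9 (0.01) and lrwd1, and nearest to aplnrb were wbp4 (0.01) and vapa. The gene cxcr4a lay nearest to id1 (0.09), which encodes an inhibitor of helix-loop-helix factors, and to has2, while cxcr4b lay nearest to the Krüppel-like factor gene klf2a (0.10) and to tsc22d3. Nearest to cxcl12a were the planar polarity gene prickle1b (0.05) and the epithelial regulator gene grhl3. The gene cxcl12b lay nearest to eef1a1l1 (0.01) and rps6, which encode parts of the translation machinery, and ackr3b to the Hairy-related gene her11 (0.05) and to hsp70.1.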

How the data were processed

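The authors deposited 1 table of FPKM values per gene, rounded to 2 decimals, with 1 column for each of 3 libraries and 0 other columns of sample values. Per the submitters' processing notes, the genome build was GRCz11 and the tools included RSEM 1.2.8, Bowtie2 2.2.5 and Trimmomatic 0.36, with no roles stated. The annotation release and any scaling between libraries are not given in the sources used here. RSEM, if it made the values, shares reads between similar genes by estimate, so paralogue pairs may exchange reads. Columns were matched to libraries by name.

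From these values log2 ratios were computed with a pseudocount of 1 in Python 3.11.15 (pandas 2.3.3, numpy 2.4.6), and genes were counted at 2-fold where at least 1 of the compared libraries reached an FPKM of 1. The counting was checked on altered data with known changes. No test was run, since each group has 1 library. Relative depth was read from genes between 0.1 and 1 FPKM, searching ratios from 0.85 to 1.15. Of 223 entries in 8 further lists, 210 matched a gene, 9 of them through names in NCBI's gene list for assembly GRCz12tu, whose coordinates were not used; 3 of 213 genes are in more than 1 list. Up to 3 genes per list with the largest ratio to control at FPKM of at least 5 are named, and 2 genes of nearest pattern per member. Not every gene the rule names is given with its values. The members and lists were chosen with earlier results of these data known. The 7 alternatives were 2 pseudocounts (0.1 and 5), 2 filters, and scaling to TPM, to the median of ratios and to 78 ribosomal protein genes.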

Additional observations from a re-analysis of the deposited data

How the results depend on the processing

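The counts of members lower than control, 7 at 4.3 hpf and 6 at 5 hpf, stayed within 1.5 times these values under all 7 alternatives. The remaining counts, of members higher than control and of members past 2-fold between the WGA libraries, were 0 and stayed at 0. Every called member had an FPKM of at least 5 in control, so neither filter could remove a call. Of 165 recomputed log2 ratios of single members, 160 kept their direction and their side of 2-fold. A filter leaves the ratio of a gene unchanged, so the 24 without a filter and the 21 with an FPKM filter of 5 could not differ. A pseudocount cannot turn a sign, so only the scalings could change a direction. Calls that ended were those of cxcl12b at 4.3 hpf, with a pseudocount of 5 (log2 ratio -0.58) and with ribosomal protein scaling (-0.43). Signs turned for aplnrb at 4.3 hpf over control (0.17) and at 5 hpf over 4.3 hpf under WGA (-0.31), both with ribosomal protein scaling, and for cxcl12a at 5 hpf over 4.3 hpf under WGA with median-of-ratios scaling (0.02); none of these ratios was past 2-fold. The gene apln passed only where no filter was set. With values so near 0 the pseudocount of 1 keeps its ratios within 2-fold whatever the change, so that outcome is not informative. The cause of these changes was not tested. The ratio of apela at 4.3 hpf ranged from -3.11 to -1.98 and that of cxcr4a at 5 hpf from -2.88 to -2.40. No paired analysis was possible because each group has 1 library, and no library could be left out for the same reason. FPKM values without read numbers give no counting interval, so low members, such as cxcl12a near 2 FPKM in WGA embryos, have an unknown counting error.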
